A study of Mus musculus with 6 samples.

Results

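The genes described here encode the proteins of the cytoplasmic ribosome. They were chosen by name: every mouse gene whose symbol is Rpl or Rps followed by a number and, where present, a single letter a, x or l, together with Rplp0, Rplp1, Rplp2 and Rpsa, provided that its Ensembl identifier was counted in all 6 samples. The rule found 80 of the 21485 genes that the samples shared, 49 of the large subunit and 31 of the small subunit, and used no measured value. MDSPCs, the muscle-derived stem/progenitor cells studied here, are what remains after the faster-attaching cells of digested skeletal muscle have been removed by repeated plating on collagen. Per the labels, 3 populations from young mice (Y1-1, PtC5 and FT-QU, young replicates 1 to 3) and 3 from old mice (O1-1, NA-f2 and NA-f3, old replicates 1 to 3) were grown in proliferation medium and profiled by droplet-based 3′ single-cell RNA sequencing. All 6 were cultured cells with no treatment named, and the labels give no age, sex or strain. Each population was 1 sample and 1 replicate, and nothing in the labels says whether a population came from 1 mouse or several.

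A ribosome holds 1 copy of nearly every ribosomal protein, so cells make these proteins in close to equal amounts from mRNAs that are among the most abundant in growing cells. Most of these mRNAs begin with a run of pyrimidines at the 5′ end, the terminal oligopyrimidine or TOP element, through which the kinase mTOR and the RNA-binding protein LARP1 adjust their translation. A few members have a paralog that can take their place: Rpl22l1 for Rpl22, Rpl39l for Rpl39, Rpl3l for Rpl3 and Rpl10l for Rpl10. Rpl3l is best known from heart and skeletal muscle, and Rpl39l and Rpl10l from the male germ line.

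The windows below show the annotated start sites of the genes on which the results turn: the 3 members with the highest mean level, 3 pairs of a member and its paralog, and 2 of the members that departed from the rest, as described below. Each holds 15 bases before and 15 from the start site on the transcribed strand, from RefSeq on GRCm38.p6, and capitals mark the longest run, 1 per window, of a C followed by at least 4 further C or T that begins within 10 bases of the start. Shorter runs of the same kind stay in lower case. Rpl22 and Rps27l have 2 annotated starts each, of which 1 is shown: the Rpl22 start not shown holds a run, and the Rps27l start not shown holds none.
Rpl41 (chr10:128549154-128549183, minus strand): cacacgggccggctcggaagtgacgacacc
Rps2 (chr17:24720048-24720077, plus strand): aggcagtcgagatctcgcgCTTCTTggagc
Rplp0 (chr5:115559452-115559481, plus strand): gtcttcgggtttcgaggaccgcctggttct
Rpl22 (chr4:152325711-152325740, plus strand): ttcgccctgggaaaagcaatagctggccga
Rpl22l1 (chr3:28805493-28805522, plus strand): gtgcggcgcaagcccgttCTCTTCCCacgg
Rpl39 (chrX:37085208-37085237, minus strand): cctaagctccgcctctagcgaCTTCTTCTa
Rpl39l (chr16:10170213-10170242, plus strand): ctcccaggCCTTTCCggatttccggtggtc
Rps27 (chr3:90213634-90213663, minus strand): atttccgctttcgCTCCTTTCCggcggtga
Rps27l (chr9:66946071-66946100, plus strand): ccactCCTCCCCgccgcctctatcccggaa
Rps10 (chr17:27635230-27635259, minus strand): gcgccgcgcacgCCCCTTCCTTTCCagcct
Rpl38 (chr11:114668565-114668594, plus strand): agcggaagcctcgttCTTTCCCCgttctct

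RefSeq start windows were matched for 60 of the 80 members. The run was found in 38 of them (63.3%), compared with 34.4% of all 27025 genes with a window and 44.9% of 69 mitochondrial ribosomal protein genes. With the C at exactly the annotated first base, as in Rpl38, it was found in 13 members (21.7%) and in 3.01% of all genes, and in 0 of the mitochondrial set. The search covered the transcribed strand only, and a start that a cell uses can lie some bases from the annotated one.

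The samples were counted by the authors on 2 gene lists. Young replicate 1 and old replicate 1 used a shorter list of 21849 features with Cell Ranger 7.0.0, and the other 4 samples a longer list of 32285 features with version 7.2.0. Between 8674 and 12538 cells per sample were kept, with a median of 12820 to 19687.5 unique molecular identifiers (UMIs) per cell and 133608357 to 193379367 UMIs per sample on the shared genes. Any 2 libraries shared between 24 and 41 cell barcodes. Summed markers of muscle cells ranged from 193 to 2197 counts per 1000000 UMIs (CPM) in the young and from 259 to 3618 CPM in the old samples, and those of fibro-adipogenic cells from 206 to 434 CPM over all samples. Endothelial, immune and glial markers summed to at most 8.20 CPM, except for 59.4 CPM of endothelial markers in young replicate 2, pericyte and smooth muscle markers to between 3.22 and 71.7 CPM and tendon markers to between 125 and 304 CPM. Where bulk sums are compared, fewer cells of a type and less RNA per cell cannot be told apart.

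Ribosomal protein genes held between 16.3% and 23.8% of all UMIs, and the samples on the shorter gene list had the highest shares. Young replicates 1, 2 and 3 had shares of 23.8%, 19.6% and 18.9%. Old replicates 1, 2 and 3 had shares of 23.0%, 16.3% and 17.7%. The highest value of each group came from the sample on the shorter list, and the 2 groups overlapped. The means were 20.7% ± 2.63 and 19.0% ± 3.55 (SD, n = 3 each), a difference of -1.74 percentage points that was smaller than either SD. Each SD includes the gap between the 2 lists. The old value was lower on both lists, with a difference of -0.741 points on the shorter list, where each group has a single sample, and of -2.24 points on the longer list. Leaving out each sample gave differences from -0.233 points (without young replicate 1) to -3.75 points (without old replicate 1), with -0.383 points without old replicate 2, -1.09 without old replicate 3 and -2.67 without young replicate 3. These are differences of plain group means, with no term for the list. Without young or old replicate 1, only 1 group still held a sample on the shorter list, so those values include the list gap. The samples on the shorter list averaged 23.4% ± 0.524 (SD, n = 2) and those on the longer list 18.1% ± 1.44 (SD, n = 4). Gene list, Cell Ranger version and population changed together here, so their parts cannot be told apart. With the cells of a sample split into 4 equal groups by UMIs, the median share in the shallowest and the deepest group was 23.4% and 24.6%, 20.2% and 19.0%, and 19.4% and 18.6% in young replicates 1 to 3. In old replicates 1 to 3 it was 24.2% and 22.7%, 15.7% and 16.5%, and 18.1% and 17.4%. The direction differed between samples. Large subunit genes held 1.23 to 1.44 times as many UMIs as small subunit genes.

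**Figure D1:**
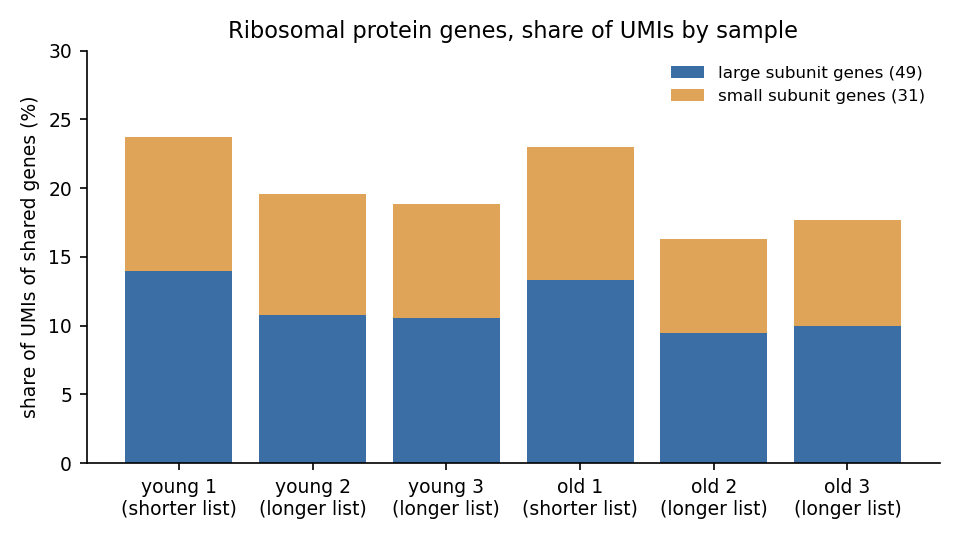
Share of the UMIs of shared genes that fell on ribosomal protein genes, in percent, for each sample; the stacked bars split it into 49 large and 31 small subunit genes. The 2 samples on the shorter gene list stand highest, at 23.8% and 23.0%, and the 4 on the longer list lie between 16.3% and 19.6%.

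Of the 80 members, 77 were expressed at a mean of more than 400 CPM and 3 were nearly absent. A UMI stands for 1 captured 3′ end, so levels were not divided by transcript length. Among the 77, mean levels ran from 639 CPM for Rpl4 to 7156 CPM for Rpl41, the smallest protein of the ribosome, an 11.2-fold range with a median of 2371 CPM. Rpl41 was followed by Rps2 at 6294 CPM, Rplp0, the scaffold of the ribosomal stalk, at 6093 CPM, Rps20 at 5516 CPM and Rpl13 at 4688 CPM. The lowest after Rpl4 was Rpl13a at 644 CPM. All 5 of these differed between samples, as Rps2 did with 5500, 8567 and 7611 CPM across the young replicates and 3953, 5157 and 6973 CPM across the old ones. Rpl41 was above Rps2 only in the 2 samples on the shorter list, as its values given below show. Its first place and the upper end of the range rest on those 2 samples. Across the 77 genes, the Pearson correlation of log2 CPM was 0.949 between the 2 samples on the shorter list, 0.883 to 0.967 between samples on the longer list and 0.551 to 0.713 between samples on different lists. These values describe the same 77 genes, which are not independent replicates.

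Most members that departed from the rest did so by gene list. A member was taken to depart where its log2(CPM + 1), after its own mean and the sample's median over members were removed, was beyond 1 in either direction. This held for 8 members: Rpl41, Rps28, Rps29, Rpl38, Rps10, Rpl13a, Rpl29 and Rpl39l. Rps10, a small subunit protein near the mRNA entry channel, was at 488 and 595 CPM in the 2 samples on the shorter list. It was at 3796, 3742, 2935 and 3336 CPM in the 4 on the longer list, so the lists did not overlap. Rpl13a was at 149 and 224 CPM on the shorter list and at 1111, 1081, 568 and 730 CPM on the longer one. Rps29, a zinc-binding protein of the small subunit head, moved the other way, with 4694 and 6984 CPM on the shorter list and 1413, 1406, 1270 and 1456 CPM on the longer list. Rpl41 had 14907 and 12712 CPM on the shorter list, against 3325 to 4338 CPM on the longer one. Rpl29 departed in old replicate 1 alone, at 569 CPM compared with 1059 to 1454 CPM elsewhere.

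In the fit of all genes with terms for list and age group, the quasi-likelihood test of edgeR, adjusted by Benjamini-Hochberg, called 2 of 78 members between the lists, 1 higher and 1 lower, beside 39 of 14512 genes (0.269%), of which 0.0482% were higher and 0.221% lower on the shorter list. Rps10 was lower on the shorter list by -2.61 on the log2 scale (SE 0.25, adjusted p = 0.0363) and Rps29 was higher by 2.11 (SE 0.21, adjusted p = 0.0379). The fold changes of Rpl38 (2.00, SE 0.24, adjusted p = 0.0634), Rps28 (1.99, SE 0.26, adjusted p = 0.0878), Rpl41 (1.93, SE 0.27, adjusted p = 0.106) and Rpl13a (-2.12, SE 0.34, adjusted p = 0.133) did not pass edgeR's threshold, nor did Rps2 (-0.52, SE 0.28, adjusted p = 0.468). DESeq2 called 14 members, 12 of them higher, among 1146 genes (7.9%). With any 1 sample of the longer list left out, edgeR called 0 members, Rps10 and Rps29 included, beside 0 to 49 of all genes. Without young or old replicate 1 the shorter list holds 1 sample, so only fold changes are given for those fits. With any 1 of the 6 samples left out, the lowest member fold change stayed between -2.69 and -2.55 and the highest between 2.09 and 2.33. Of all 78 members 58 were above 0, and their median was 0.37 compared with -0.03 over all genes. Other genes also varied between the populations on the 2 lists. The 8 muscle markers summed to 332 and 259 CPM on the shorter list and to 2197, 193, 1668 and 3618 CPM on the longer list, so the lists overlapped. Of these 8 markers, edgeR called 0 between the lists, and 0 were above 0. Of 35 ribosome assembly genes it called 0, while 29 were above 0 with a median of 0.57. Their part in the result was not tested.

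Members with short coding sequences stood highest on the shorter list. All 10 tested members with a coding length under 300 bases were higher on the shorter list, with a median log2 fold change of 1.43. The median was 0.62 at 300 to under 450 bases (27 members), 0.13 at 450 to under 600 (19 members), 0.01 at 600 to under 900 (18 members) and -0.14 at 900 and over (4 members, a thinly filled class). Other protein-coding genes tested showed medians of 0.14 under 300 bases (312 genes) and between -0.07 and -0.03 above that. Over the 77 expressed members, Spearman's rho between coding length and this fold change was -0.76, and it was -0.77 without Rps10 and Rpl13a. The points share the same 6 libraries, so no p is given.

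**Figure D2:**
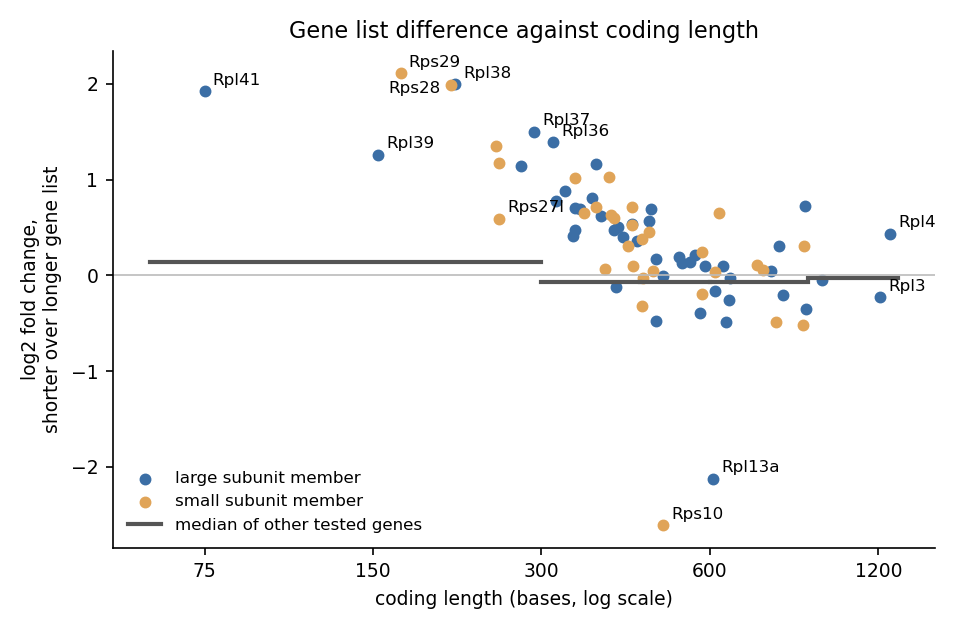
Each point is 1 of the 77 expressed members: coding length in bases on a log axis against the log2 fold change of samples on the shorter gene list over those on the longer list. Members under 300 bases lie between 0.59 and 2.11, those of 450 bases and over scatter around 0, Rps10 and Rpl13a stand apart at -2.61 and -2.12, and dark lines give the medians of other tested genes per length class.

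Rps10 and Rpl13a, which do not follow coding length, are the members whose locus holds a further gene on the shorter list alone. In GENCODE, Rps10 (chromosome 17, 27630418 to 27636669) is overlapped on its own strand by the read-through gene RPS10-NUDT3, listed as Gm49804, and Rpl13a (chromosome 7, 45125558 to 45128761) by Gm45713. Of the stretches of 50 bases in the last 400 bases of their transcripts, 47.0% and 43.0% also occur in that overlapping gene. The overlapping genes themselves received few UMIs, 16 and 88 for Gm49804 and 4 and 9 for Gm45713 in young and old replicate 1, that is, at most 0.581 CPM in either sample. These counts do not show how reads that fit both genes were treated. The part of the overlap in the levels of Rps10 and Rpl13a was not tested. Rpl19 (Gm11629, on the longer list alone) is the 1 member overlapped the other way, and its level on the 2 lists differed by 0.10 on the log2 scale (SE 0.27). Of the same 50-base stretches, Rpl41 shares 47.8% with Gm10076, counted on the longer list alone, while Rps28, Rps29 and Rpl38 share none with another gene of either list. Members such as Rpl10, Rpl36a, Rpl35, Rps27, Rps18 and Rpl9 share over 50% of theirs with a copy on both lists, so their own levels are uncertain.

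Between old and young samples no member passed the test. Of 14512 genes edgeR called 1 (0.00689%), with 512 at an unadjusted p under 0.05. Of 78 members tested it called 0, with 0 at an unadjusted p under 0.05. DESeq2 also called 0 members, beside 219 of all genes (1.51%). At an unadjusted p under 0.05 it had 2 members and 1068 of all genes. Of the 78 fold changes, 12 were above 0, and their median was -0.19 on the log2 scale, compared with -0.01 over all genes. Leaving out samples moved these values: 25 were above 0 with a median of -0.11 without young replicate 1 or without old replicate 1. In both of these fits the list term takes up the remaining sample of the shorter list, so they rest on the longer list alone. There were 7 above 0 with a median of -0.25 without young replicate 3, 8 with -0.16 without young replicate 2, and 9 with -0.30 without old replicate 3. Rpl32, Rps20 and Rplp1 had the smallest unadjusted p among members below 0. Rpl32 (chromosome 6, 115805505 to 115808747, GRCm38) was at 4518, 3330 and 4695 CPM across young replicates 1 to 3, while old replicates 1 to 3 had 4114, 2627 and 2704 CPM. Its groups overlapped, and its fitted change on the log2 scale was -0.52 (SE 0.21, edgeR adjusted p = 1.0). Rps20, a protein of the small subunit head, was at 8285, 5913 and 5211 CPM across the young replicates, while the old ones had 5884, 3444 and 4361 CPM. The groups overlapped, with a fitted change of -0.59 (SE 0.24, edgeR adjusted p = 1.0). For Rplp1, an acidic stalk protein, the value was -0.49 (SE 0.23). Among members above 0, Rpl10 had 0.24 (SE 0.25), Rpl38 had 0.13 (SE 0.24) and the sparse Rpl3l 0.51 (SE 0.70), none larger than its SE. Without old replicate 2, Rpl10 was at 0.02 and Rpl38 at -0.01. The young and old CPM values did not overlap in 2 members, Rpl13 and Rps15a, both lower in the old samples, while 5.93% of all genes did not overlap in either direction and 0.903% did so with the old samples lower. For Rps15a the young replicates had 4223, 4254 and 4197 CPM, and the old ones 3374, 3086 and 3704 CPM.

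Genes of related function did not pass the test between age groups either. Of 35 genes of ribosome assembly 0 were called and 17 were above 0, and of 22 other TOP mRNAs 0 were called and 2 were above 0, with a median log2 fold change of -0.17. Of 78 mitochondrial ribosomal protein genes 0 were called and 45 were above 0 (median 0.02). These lists were chosen with earlier results of the same data known.

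Within single samples, however, members could be compared between cells that differ in their state. After thinning to 5000 UMIs, cells with at least 1 UMI of Myog, the transcription factor that starts muscle differentiation, were set against cells with none. All 6 samples had both kinds, from 67 Myog-positive cells in old replicate 1 to 5579 in old replicate 3. Ribosomal protein genes held a smaller share of UMIs in the Myog-positive cells of every sample. Positive minus negative cells gave -2.69, -0.798 and -1.09 percentage points in young replicates 1 to 3. The same difference was -3.01, -1.57 and -1.60 points in old replicates 1 to 3. The mean difference was -1.79 percentage points ± 0.878 (SD, n = 6), and no test was run on this sum. Median depth differed most in young replicate 1, with 10874 UMIs in positive and 14028 in negative cells, while old replicate 3 had 12720 and 13170 and old replicate 2 had 20169 and 19773. After thinning to equal depth the mean difference was -2.06 points.

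With the sample as a block, edgeR called 15 of 77 members between Myog-positive and Myog-negative cells, all of them lower, beside 35.3% of all genes called and 20.4% called lower. Members were thus called lower about as often as all genes, and called in either direction less often. The largest changes were those of Rps12 and Rpl12. Rps12, a small subunit protein, had a mean of 1429 ± 581 CPM in positive and 1834 ± 875 CPM in negative cells (SD, n = 6). It was lower in 6 of 6 samples, with a log2 fold change of -0.31 (SE 0.07, edgeR adjusted p = 0.00906). Rpl12, a protein at the base of the stalk, was at 896, 1978 and 2043 CPM in the positive cells of the young samples and at 1239, 2334 and 2265 CPM in their negative cells. In the old samples the values were 1486, 870 and 1177 CPM in positive and 1897, 1065 and 1503 CPM in negative cells. Every sample was lower in its positive cells, and the log2 fold change of Rpl12 was -0.29 (SE 0.06, edgeR adjusted p = 0.00723). Rpsa, which is also known as the laminin receptor, fell by 0.22 (SE 0.07, edgeR adjusted p = 0.0266) and Rplp0 by 0.22 (SE 0.06, edgeR adjusted p = 0.0174). Rpl32 and Rps27l each fell by 0.20 (SE 0.06 and 0.05, edgeR adjusted p = 0.0315 and 0.0137). Rpl13a, Rplp1, Rpl5, Rps2, Rps15, Rpl31 and Rps16 were among the other 9 called. At the other end of the order, Rpl37a had 0.07, and 3 of 77 members were above 0. In CPM, 58 of 77 members were lower in all 6 samples, compared with 22.8% of all genes tested. These shares are not alike, since the 77 members all had a mean of more than 400 CPM and the genes tested include sparse ones. With library totals alone, as in CPM, the median log2 fold change was -0.13 for members and -0.10 for other genes. The number of calls depended on the scaling: it was 33 with scaling factors from non-members (23.7% of all genes called lower), 59 with library totals alone (24.8%), and 0 where the sample block was dropped (0.207%). With positive cells defined by 2 or more Myog UMIs, in 5 samples, 4 of 77 members were called, all lower, beside 21% of all genes called lower. Other features of the cells differed in the same contrast. Of 5 fibro-adipogenic markers tested, 2 were called lower, 0 were above 0 and the median was -0.75. A larger part of the Myog-positive cells was scored G1 in 6 of 6 samples, as in young replicate 1 with 243 of 295 compared with 3954 of 8149. Among G1-scored cells alone, in the 5 samples with enough of them, 11 of 77 members were called, all lower, beside 21.5% of all genes called lower. The part of the markers in the result was not tested. Over all cells the number of calls was 5, 6 and 8 without old replicates 1, 2 and 3 in turn, where 18.2%, 13.9% and 13.7% of all genes were called lower. Without young replicate 2 it was 26, beside 16.7% of all genes. In a further split, cells with 2 or more UMIs of Cdkn1a, a cell cycle inhibitor, had a lower member share than cells with none in 6 of 6 samples, by a mean difference of -0.823 points ± 0.402 (SD, n = 6). Cdkn1a was itself higher in Myog-positive cells (1.63, SE 0.23, edgeR adjusted p = 0.00329), so the 2 splits are not independent. In old replicate 2 this set 7495 cells against 401.

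**Figure D3:**
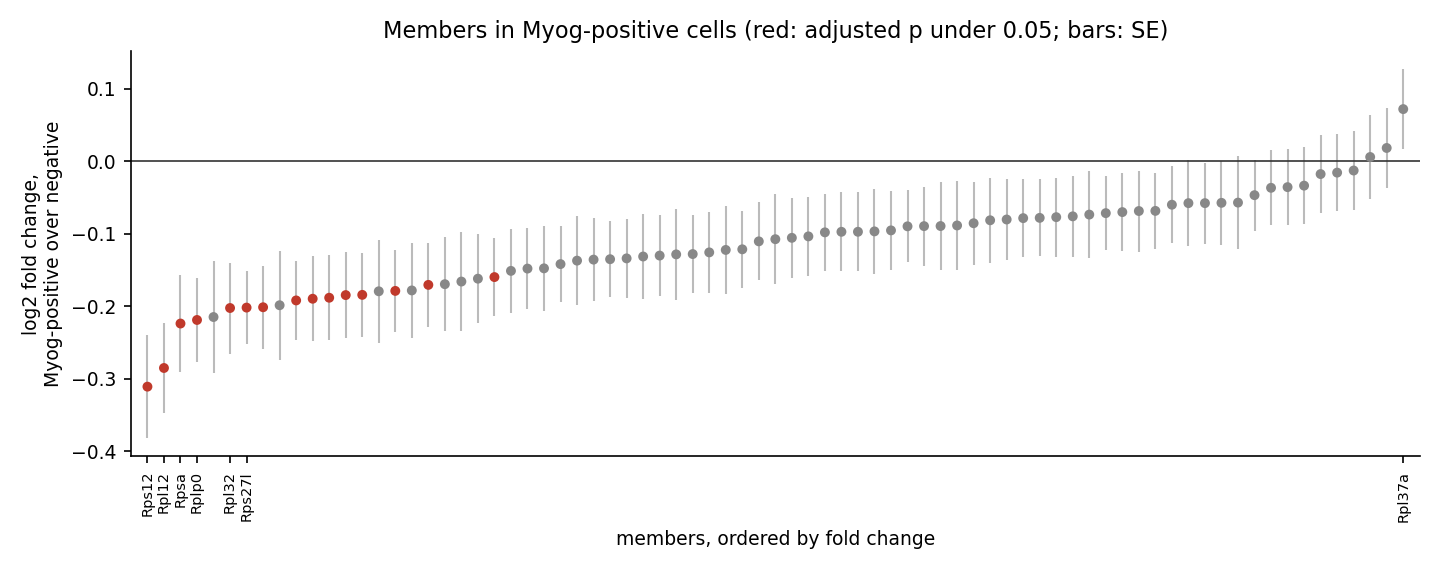
Log2 fold change of each of the 77 expressed members in Myog-positive over Myog-negative cells with its SE, ordered by size, with 7 members the text describes labelled; red points passed the test at an adjusted p under 0.05. The points run from -0.31 for Rps12 to 0.07 for Rpl37a, and 74 of the 77 lie below 0.

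Beside the shares of all genes called, 20.4% lower and 14.9% higher, the related lists gave the following counts. Of 35 ribosome assembly genes, 13 were called lower and 0 higher in Myog-positive cells. They include Dkc1, the pseudouridine synthase of small nucleolar ribonucleoproteins (-0.56, SE 0.08, edgeR adjusted p = 0.00118), Utp20 (-0.67, SE 0.11, edgeR adjusted p = 0.00197) and Ncl, nucleolin (-0.51, SE 0.09, edgeR adjusted p = 0.00405). Of 22 other TOP mRNAs 8 were called lower and 0 higher, among them Npm1 and Pabpc1 at -0.52 and -0.46. Myc, a transcription factor that drives ribosome genes, was lower by -0.95 (SE 0.10, edgeR adjusted p = 0.00038), the 1 gene called lower against 2 called higher (Rps6kb1 and Rps6kb2) among 15 of translation control. Of 78 mitochondrial ribosomal protein genes 10 were called higher, a share under that of all genes, and 3 lower. The median fold change was -0.11 for members, -0.19 for the assembly genes, -0.13 for the other TOP mRNAs, 0.04 for the mitochondrial set and -0.07 for all genes.

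Between phases of the cell cycle the called members changed little in size and in both directions. Cells were scored as S, G2/M or G1 from gene lists that hold no member. Between S and G1, edgeR called 56.7% of 13265 genes and 13 of 77 members, 6 higher and 7 lower, where 23.5% of all genes were called higher and 33.2% lower. Between G2/M and G1 it called 55.4% of all genes and 17 members, 3 higher and 14 lower, where the figures for all genes were 23.5% and 31.9%. No called member moved by more than 0.15 on the log2 scale. In S, Rpl12 (0.15, SE 0.03, edgeR adjusted p = 0.000516) and Rpl5, which carries 5S ribosomal RNA (0.15, SE 0.03, edgeR adjusted p = 0.0011), were higher. Rpl31, Rps15 and Rps16 were also called higher, at 0.11, 0.10 and 0.09. The lower ones were led by Rps28 (-0.11, SE 0.02, edgeR adjusted p = 0.000802) and Rpl37a (-0.11, SE 0.03, edgeR adjusted p = 0.00718), with Rps27, Rpl39, Rps9 and Rps21 between -0.08 and -0.06. In G2/M, Rps28 was lower by -0.14 (SE 0.02, edgeR adjusted p = 9.8e-05) and Rpl38 by -0.11, with Rpl10, Rps21 and Rpl37a between -0.11 and -0.10, while Rps27l, a p53 target, was higher by 0.14 (SE 0.05, edgeR adjusted p = 0.019), as were Rpsa and Rpl12 by 0.08 each. The splits depended on the scaling. With scaling on non-members, 15 members were higher and 2 lower in S, beside 25.3% and 30.4% of all genes, and 8 were higher and 6 lower in G2/M, beside 25.8% and 29.2%. With library totals alone, 15 were higher and 8 lower in S (24.5% and 31.8% of all genes) and 10 higher and 18 lower in G2/M (24.8% and 30.1%). DESeq2 gave 1 higher and 20 lower in G2/M (22.5% and 33.7%). Single samples moved the splits as well. In S they were 14 higher and 7 lower without old replicate 1, 5 and 14 without old replicate 2, 11 and 3 without old replicate 3, 4 and 6 without young replicate 1, and 4 and 2 without young replicate 2. In these fits 20.7% to 22.8% of all genes were called higher and 29.6% to 31.5% lower. In G2/M they were 3 and 29 without old replicate 2, 3 and 6 without old replicate 3, 1 and 7 without young replicate 1, and 1 and 3 without young replicate 2. Here 21% to 22% of all genes were called higher and 27.9% to 29.5% lower. The member share of UMIs in S minus G1 was 0.0777 percentage points ± 0.633 and in G2/M minus G1 -0.142 ± 0.565 (SD, n = 6), both within the spread between samples. Of the ribosome assembly genes, 23 of 35 were called higher and 0 lower in S, and 24 higher and 1 lower in G2/M.

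The levels of the paralogs relative to their partners differed from pair to pair. Rpl22, an RNA-binding protein of the large subunit, was at 2314, 1691 and 1524 CPM across young replicates 1 to 3, and 1870, 1132 and 1357 CPM across old replicates 1 to 3. Rpl22l1, which the naming rule does not count as a member, had 666, 908 and 982 CPM across the young replicates, with 736, 1072 and 1492 CPM across the old ones. The ratio of Rpl22l1 to Rpl22 was 0.288, 0.537 and 0.644 for young replicates 1 to 3, against 0.393, 0.947 and 1.10 for old replicates 1 to 3. The copy was above Rpl22 in old replicate 3 alone. The means were 0.490 ± 0.183 and 0.813 ± 0.371 (SD, n = 3 each) and the groups overlapped (two-sided exact permutation test, p = 0.3, adjusted over 4 paralog ratios 0.8, smallest possible p 0.1). On each list the old samples were above the young ones, and the permutation test did not take the list into account. Rpl36al to Rpl36a ran from 0.262 to 0.906 among young and from 0.282 to 1.32 among old samples (exact permutation p = 0.9), and both pairs were lowest in the samples on the shorter list. Rps27l was above Rps27 in all 6 samples, by 1.26 to 2.56 times. Rps27 and Rpl36a are among the members described above whose own levels are uncertain, so the ratios to them are uncertain too. Rpl7l1 was at 106 to 153 CPM, about 6% of Rpl7. Rps3a1, the name under which mouse Rps3a is listed, was at 2633 to 3571 CPM.

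**Figure D4:**
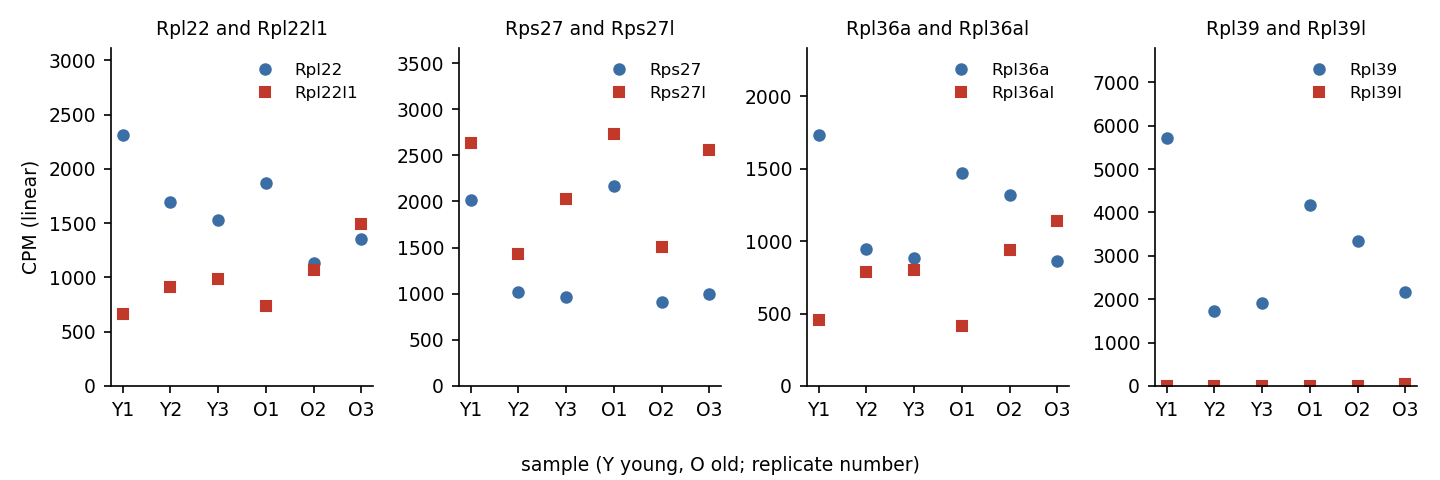
CPM on linear axes of 4 members and their paralogs in each sample (Y young, O old, with the replicate number). Rpl22l1 lies just under Rpl22 in old replicate 2 and above it in old replicate 3, Rps27l lies above Rps27 in all samples, and Rpl39l is near 0 except for 46.2 CPM in old replicate 3. The levels of Rps27 and Rpl36a are uncertain, as the text describes.

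The 3 members that were nearly absent are all paralogs. Rpl10l had 0 UMIs in every sample, and Rpl3l had between 3 and 20 UMIs per sample, at most 0.113 CPM. Rpl39l, by contrast, had 8435 UMIs in old replicate 3 (46.2 CPM) and between 0 and 4 UMIs in each of the other 5 samples. At 5000 UMIs per cell it was found in 3.26% of the cells of old replicate 3 and in at most 0.0118% of those of any other sample. Its partner Rpl39 had 5713, 1738 and 1905 CPM across the young replicates, with 4166, 3349 and 2170 CPM across the old ones.

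The Rpl39l UMIs of old replicate 3 came from few cells. Of its 12538 kept cells, 12012 had none, 128 had 1 or 2, and 398 (3.17%, Wilson 95% interval 2.88% to 3.50%) had 3 or more, up to 113 in 1 cell. Those 398 cells held 98.1% of all its Rpl39l UMIs. Since this split was made after the values were seen and rests on 1 sample, its other genes are given as a description with exact Poisson 95% intervals that cover counting error only. The cells were chosen by their own Rpl39l count, a cut that deeper cells pass more easily, so its level of 680 CPM there, 30.6% of that of Rpl39, follows from the choice in part and is given with no interval. Rpl39 itself was at 2223 CPM in these cells and at 2165 CPM in cells without Rpl39l. The member share of UMIs was 17.9% and 17.7%, and the median log2 ratio of the 77 expressed members was -0.06, with Rpsa highest at 0.62 and Rpl21 lowest at -0.48. Other genes had larger ratios. Igfbp4, a binding protein of insulin-like growth factors, was at 858 CPM (841 to 874) compared with 3.53 CPM (3.25 to 3.83), and Cck, which encodes a peptide hormone, at 548 compared with 1.03 CPM. Fbln2 and Timp3, proteins of the extracellular matrix, were at 506 and 415 CPM compared with 2.10 and 2.08 CPM. The fibro-adipogenic markers Dcn and Pdgfra were at 21.8 and 4.36 CPM compared with 0.04 CPM each. Smoc2 and Gsn were also higher, at 6.17 and 326 CPM compared with 0.764 and 176 CPM. Col3a1, however, was lower (21.5 compared with 71.6 CPM), and Lum had 1 UMI over all 398 cells. Myog was at 158 compared with 990 CPM, Myod1 at 207 compared with 960 CPM and Pax7 at 6.50 compared with 35.6 CPM. The cells were deeper, with a median of 31052.5 UMIs compared with 12729, although the 71 of them with 3 to 5 Rpl39l UMIs had a median of 7493. Doublets were not called, and their part in this group was not tested.

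In old replicate 2, members on chromosome X and, less so, on chromosomes 11 and 5 stood above members elsewhere. Each sample's log2(CPM + 1) was set against the mean of the other samples on its list and centred on the autosomal median. The 4 members on chromosome X, Rpl10, Rpl36a, Rpl39 and Rps4x, were higher by 0.64, 0.54, 0.78 and 0.62 in old replicate 2, while members elsewhere had a median of -0.32. For Rps4x this was 6075 CPM, against 3845 to 3988 CPM in the other samples on the longer list. Rpl10 and Rpl36a on chromosome X and Rpl9 on chromosome 5 are among the members described above whose own levels are uncertain. Members on chromosome 11 had a median of 0.20, with Rpl38 highest at 0.44 and Rpl23a lowest at -0.18, and those on chromosome 5 a median of 0.03, with Rpl6 highest at 0.17. Other genes moved with them: 481 further genes tested on chromosome X had a median of 0.76, 1148 on chromosome 11 0.34 and 902 on chromosome 5 0.31. On chromosome 13, which holds 1 member, the other genes had a median of 0.26, and on every other chromosome with members their median lay between -0.11 and 0.01. On the 7 other chromosomes with 4 or more members, the members' median stood apart from members elsewhere by at most 0.29 in either direction in any sample. On chromosomes with fewer members, some medians stood farther apart in other samples. In young replicate 3, Rpl32, the 1 member on chromosome 6, was higher by 0.65, and 712 other genes there had a median of 0.35. In the same sample the 3 members on chromosome 1 had a median of 0.40 and 867 other genes one of 0.06. In young replicate 2 the 2 members on chromosome 18 stood 0.37 above members elsewhere, with the other genes there at a median of 0.16. On chromosome 12 the 2 members differed from members elsewhere by -0.38 in young replicate 1 and by 0.38 in old replicate 1, the 2 samples of the shorter list, which are each other's reference. Among single members, Rps6 on chromosome 4, the S6 protein that mTOR signalling phosphorylates, was higher by 1.15 in young replicate 2, at 1698 CPM compared with 718 to 896 CPM in the other samples on its list. Each of these is 1 sample, so no test was made.

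**Figure D5:**
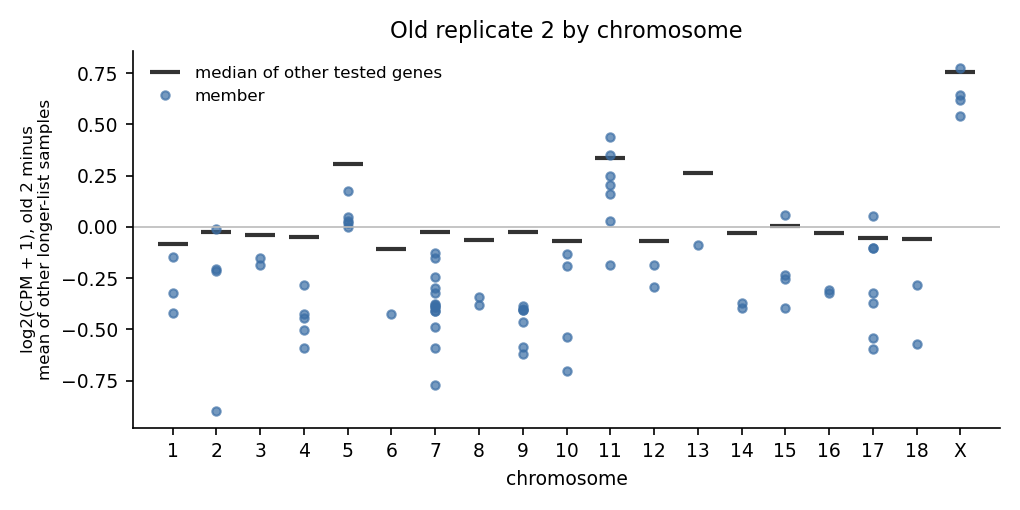
Difference in log2(CPM + 1) between old replicate 2 and the mean of the other 3 samples on the longer gene list, by chromosome; points are members and dashes the median of the other tested genes. Members on chromosomes X, 11 and 5 lie mostly above 0, those elsewhere mostly below, and the other genes on chromosomes X, 11, 5 and 13 are raised as well.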

How the data were processed

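The authors deposited raw counts of UMIs per gene and cell barcode, whole numbers with no normalization, which per the file headers came from Cell Ranger (version 7.0.0 for 2 samples, 7.2.0 for 4), on build mm10 per the submitters' processing notes. The annotation and the treatment of intronic reads are not given in the sources used here. A cell needed at least 1000 UMIs and 500 genes and under 15% mitochondrial UMIs. Counts were summed per sample, or per sample and cell class, over the 21485 shared genes, so p-values measure the spread between samples. Sums were tested with edgeR 4.0.16 (TMM, filterByExpr, robust quasi-likelihood test, terms for gene list and group, or sample and class), with Benjamini-Hochberg adjustment over all genes at 0.05. SE was derived from the fold change and its F statistic. The fits were tested on simulated counts. Phases were scored with scanpy 1.11.5 after thinning, which used the 60305 of 61665 cells with at least 5000 UMIs. CPM is unscaled. Doublets and free RNA in droplets were not estimated, so class contrasts include both. Coding lengths and overlaps come from GENCODE vM21 on GRCm38. Genes were named by a rule: paralogs with their partners, the 5 highest and 5 lowest members, departing members, up to 6 called members each way per comparison (the 3 smallest p where fewer passed), and the farthest member of each departing chromosome. The members and lists were chosen with earlier results of these data known. Alternatives included DESeq2 1.42.0. Some members that the naming rule selects are not reported here by name.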

Additional observations from a re-analysis of the deposited data

Results flagged for a closer look

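The 3 genes that overlap a member on its own strand but stand on 1 gene list alone were outside the shared genes and exceeded the 3 counts that a count of 0 allows. Gm49804, over Rps10, had 16 counts in young replicate 1 and 88 in old replicate 1. Gm45713, over Rpl13a, had 4 and 9 counts in the same samples. Gm11629, over Rpl19, had 42 counts in young replicate 2, 49 in young replicate 3, 20 in old replicate 2 and 41 in old replicate 3. All are far below the counts of the members they overlap, but they do not show how reads that fit both genes were treated.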

How the results depend on the processing

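Between old and young, edgeR and each of its alternatives called 0 members. The labels do not say whether the replicate numbers pair samples. The correlation of deviations was 0.378, 0.224 and -0.081 for numbers 1, 2 and 3, and between -0.408 and 0.276 for unlike numbers. These values cannot settle it, since each group has few samples and both samples with number 1 are on the shorter list. With the replicate block 1 gene and 0 members were called. DESeq2 called 219 genes there, against 1. Between the gene lists, where 2 members were called, DESeq2 called 14 (7.9% of all genes called), dropping the group term 5 (0.462%), and leaving out each sample of the longer list 0. Of 15 members called in Myog-positive cells, the count became 24 with DESeq2 (21.1% of all genes called lower) and 33 with scaling over non-members (23.7%). It became 59 with library totals (24.8%), 37 with no low-count filter (18.6%) and 0 with no sample block (0.207%). It was 4 at 2 or more Myog UMIs (5 samples, 21%). With each sample left out it was 5 to 26 (5 without old replicate 1, 26 without young replicate 2), beside 13.7% to 21.5% of all genes called lower. For S it became 23 with library totals (56.3% of all genes called), 0 with no sample block (10.9%) and 6 to 21 with each sample left out (51% to 53.2%). For G2/M it became 28, 0 and 4 to 32 in the same order (54.9%, 8.23% and 49.2% to 52.4% of all genes called). Without the sample block, the number of genes called was 283 for Myog (4786 with it), 1446 for S (7522) and 1092 for G2/M (7350), and between the lists 1146 genes were called by DESeq2 and 67 with no group term, against 39. The age difference in member share lay between -3.75 and -0.233 points with each sample left out, the Myog difference between -1.99 and -1.55, the S difference between -0.133 and 0.207, and the G2/M difference between -0.329 and -0.0389. Both ends of the age range, without old or young replicate 1, compare groups of which only 1 holds a shorter-list sample. Among single genes between old and young, Rpl38 became -0.0892 with no gene list term and -0.00558 without old replicate 2, Rpl22l1 became -0.00225 without old replicate 3, and Rps27l became -0.0684 without young replicate 2 and -0.253 without old replicate 3; with each sample left out, these 3 reached at most 0.358, 0.519 and 0.331. Spearman's rho of coding length, an alternative chosen after seeing the data, lay between -0.832 and -0.652 with each sample left out. Here it was taken against the log2 ratio of mean CPM between the lists. That ratio has no term for age group, unlike the fitted fold change used in the Results. The cause of these shifts was not tested.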
